A study of Mus musculus with 9 samples.

Results

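Nim1k (ENSRNOG00000016353), the gene of an AMPK-related protein kinase, is described here together with 9 genes of the AMPK system in rat liver: the AMPK subunit genes Prkaa1, Prkaa2, Prkab1, Prkab2, Prkag1 and Prkag2, the LKB1 gene Stk11, and the salt-inducible kinase genes Sik1 and Sik2. The 10 genes were found by symbol among the 19686 genes of the count table, and each symbol matched a single gene. Nim1k was chosen by its fold change between the model and control groups, the highest of the 5 genes called higher in the model group (0.0400% of the genes tested), so its values in that comparison are a description and carry no test. The AMPK system genes were chosen by name, as its relatives. The other comparisons of Nim1k share libraries with that comparison and are given without a test as well.

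AMPK, the AMP-activated protein kinase, senses a falling energy charge of the cell and is built from a catalytic alpha subunit, a scaffolding beta subunit and an AMP-binding gamma subunit. It is switched on by the upstream kinase LKB1, which works with STRAD and MO25, and in liver it phosphorylates and restrains acetyl-CoA carboxylase, an enzyme of fatty acid synthesis. LKB1 also phosphorylates a family of AMPK-related kinases, among them the salt-inducible kinases, which hold the CREB coactivators of the CRTC family in the cytoplasm. NIM1 carries a kinase domain related to that of AMPK, and it is less studied than the rest of the family.

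Hepatic RNA came from male Wistar rats, in a control, a model and a DSS group of 3 samples each. The control rats drank purified water and received saline by gavage, the model rats drank 15% fructose and received saline, and the DSS rats drank 15% fructose and received the 50% methanol extract of Danggui-Shaoyao-San, a herbal formula, at 1.8 g/kg per day by gavage. The treatment lasted 8 weeks, and all rats were fasted for 12 h before tissue was taken. The labels name the treated group DSS without an extract, and the extract and its dose were taken from the study's methods. The organism field of the labels says mouse, but the strain is a rat strain and the table holds rat gene identifiers, and they are treated as rat samples here. The labels number 3 liver samples in each group without saying more of their origin, and each sample is taken here as a separate rat. Every p-value measures the spread between those samples.

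Library totals ran from 14345819 to 26837227 counts, and pairs of libraries of a group correlated at 0.966 to 0.986. Model replicate 1 stood apart, at -47.0 on the second principal component (25.2% of the variance), where the next library, model replicate 3, was at -10.9. Results that rest on that rat are given with and without it. The summed level of 8 hepatocyte markers, among them albumin and transthyretin, was between 139957 and 226210 CPM in every library. CPM here are the counts of a gene scaled with edgeR to the TMM-normalized size of its library, with no correction for gene length, so the levels of different genes are not ranked against each other.

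Nim1k had few reads in the control livers and was clearly detected in both groups that drank fructose. The control rats had 8, 8 and 10 counts, which is 0.32, 0.48 and 0.66 CPM. The model rats had 255, 134 and 100 counts, or 11.0, 8.60 and 6.16 CPM. The DSS rats had 181, 84 and 83 counts, or 9.80, 4.53 and 4.32 CPM. Every rat on fructose was above every control rat, and the DSS and model rats overlapped. The low control counts are imprecise: 8 counts have an exact 95% Poisson interval of 3.45 to 15.8, which covers counting error only. Those of the fructose-fed rats start at 66.1 counts, the lower bound for the 83 counts of DSS replicate 3.

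**Figure D1:**
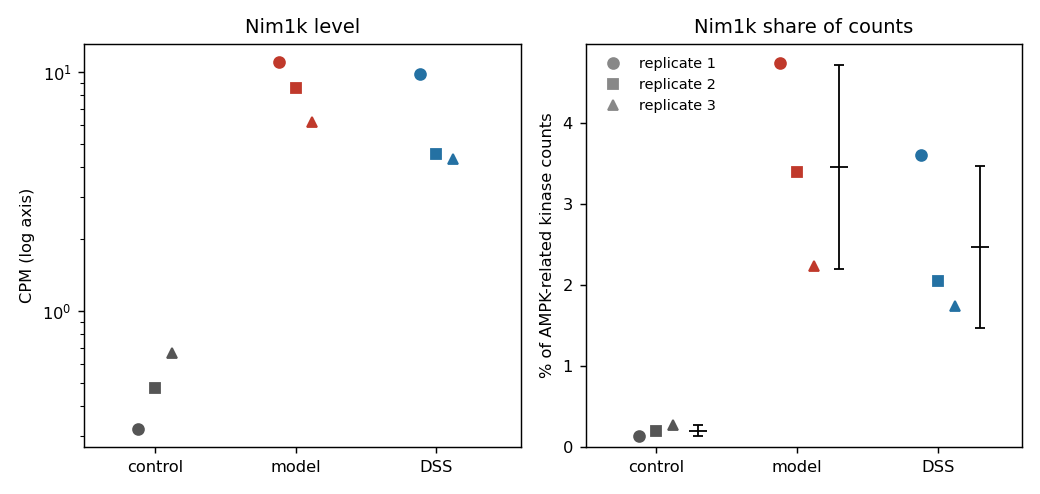
Nim1k by rat: the left panel gives its level in CPM on a log axis, the right panel its counts as a percentage of the summed counts of the AMPK-related kinase genes in the same library, with the mean and SD of each group beside the points. The 3 control rats lie between 0.32 and 0.66 CPM and the 6 rats on fructose lie between 4.32 and 11.0 CPM.

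Nim1k averaged 0.487 ± 0.172, 8.57 ± 2.41 and 6.22 ± 3.11 CPM in the control, model and DSS groups (SD, n = 3 rats each). The fitted log2 fold change was 4.17 (SE 0.37) in the model group, an 18.0-fold higher level than in control. In the DSS group it was 3.70 (SE 0.44) against control, a 13.0-fold higher level. Between the DSS and model groups it was -0.46 (SE 0.36), and it was -0.96 without DSS replicate 1, -0.24 without model replicate 1, -0.28 without DSS replicate 2 and -0.25 without DSS replicate 3. Without DSS replicate 1, the highest rat of its group, the log2 fold change of the DSS group against control was 3.21. In bulk tissue, fewer cells of a type and less RNA per cell cannot be told apart, so none of these levels says which cells of the liver held the transcript.

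Among the 12486 genes tested between the model and control groups, 0.0801% were called, which here means an FDR no higher than 0.01 together with a log2 fold change of 0.5 or more in either direction. The FDR is the Benjamini-Hochberg adjusted p over all genes tested. The next called rise after Nim1k was that of Acpp, with a log2 fold change of 2.82. Genes just outside the choice had higher fitted values but missed the FDR threshold: Cib2 at 4.76 (FDR 0.107 by edgeR), Adm2 at 4.58 (FDR 0.0307) and AABR07004397.3 at 4.46 (FDR 0.0263). Those values chose the gene and are not evidence for it.

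Taken as a share of the reads on its own kinase family, with no correction for gene length, Nim1k moved from a trace to a visible part. Of all counts on the AMPK-related kinase genes in a library, it took 0.137%, 0.201% and 0.265% in the control rats. The shares were 4.74%, 3.39% and 2.23% in the model rats, and 3.60%, 2.05% and 1.74% in the DSS rats. The summed level of the family overlapped between the groups, at 235 to 251, 231 to 277 and 221 to 272 CPM in the control, model and DSS rats.

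Of 8 marker lists of other cell types, the summed levels of 2, neuron and pancreas, did not overlap between the model and control rats, and the DSS rats overlapped control in both. Among all single genes tested, 21.1% did not overlap between the model and control rats. Of 5 neuronal markers 4 were in the table, and their summed level was 0.797 to 1.07 CPM in the control rats, 1.23 to 1.63 CPM in the model rats and 0.596 to 2.53 CPM in the DSS rats. The neuronal genes Rbfox3 and Stmn2 were at 0 in 1 and in 6 of the 9 libraries. Of 6 pancreas markers 2 were in the table, with a sum of 13.0 to 16.3 CPM in the control rats, 18.5 to 28.1 CPM in the model rats and 16.1 to 26.6 CPM in the DSS rats. Cela1 carried almost all of that sum, and Cpa1, the gene of a digestive carboxypeptidase, was at 0 in 8 libraries. The summed level of 8 Kupffer cell and leukocyte markers overlapped between the groups, at 220 to 504, 154 to 353 and 230 to 304 CPM in the control, model and DSS rats. The part of these cells in the Nim1k values was not tested.

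The genes whose levels followed Nim1k most closely over the 9 libraries were Cnnm3, Mdfic, AABR07011682.1, Pmepa1 and Ginm1, out of 12831 genes. Their Pearson correlations of log2(CPM + 1) with Nim1k were 0.99, 0.98, 0.98, 0.98 and 0.97, and the Spearman correlations lay between 0.883 and 0.95. Mdfic, for example, was at 17.1, 16.1 and 20.8 CPM in the control rats, at 42.9, 40.7 and 36.2 CPM in the model rats and at 44.0, 36.3 and 33.2 CPM in the DSS rats. The opposite pattern was closest in Dhdh (-0.97), Por (-0.97) and AABR07053741.1 (-0.96). Por, the gene of the electron donor of the microsomal P450 enzymes, was at 247, 259 and 258 CPM in the control rats, 71.9, 85.7 and 76.8 CPM in the model rats, and 93.9, 97.1 and 109 CPM in the DSS rats. These correlations share the 9 libraries and the step between water and fructose, and by rank 0 of the 5 leading genes were among the leading 5.

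The genes above were the closest out of 12831, a bar that almost any gene chosen by name would miss. The Pearson correlations of the AMPK system genes with Nim1k ran from -0.68 for Sik1 and -0.55 for Prkab1 to 0.42 for Sik2 and 0.52 for Prkag2. How many of all genes reach such values was not counted. For Stk11 and Prkab2 the values were 0.00 in size. The highest level over the lowest among the 9 rats was 34.1 for Nim1k and between 1.26, for Stk11, and 6.22, for Prkaa2, in the other genes. Nim1k was chosen by its fold change between the model and control groups, so its wide range over these rats follows from that choice.

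**Figure D2:**
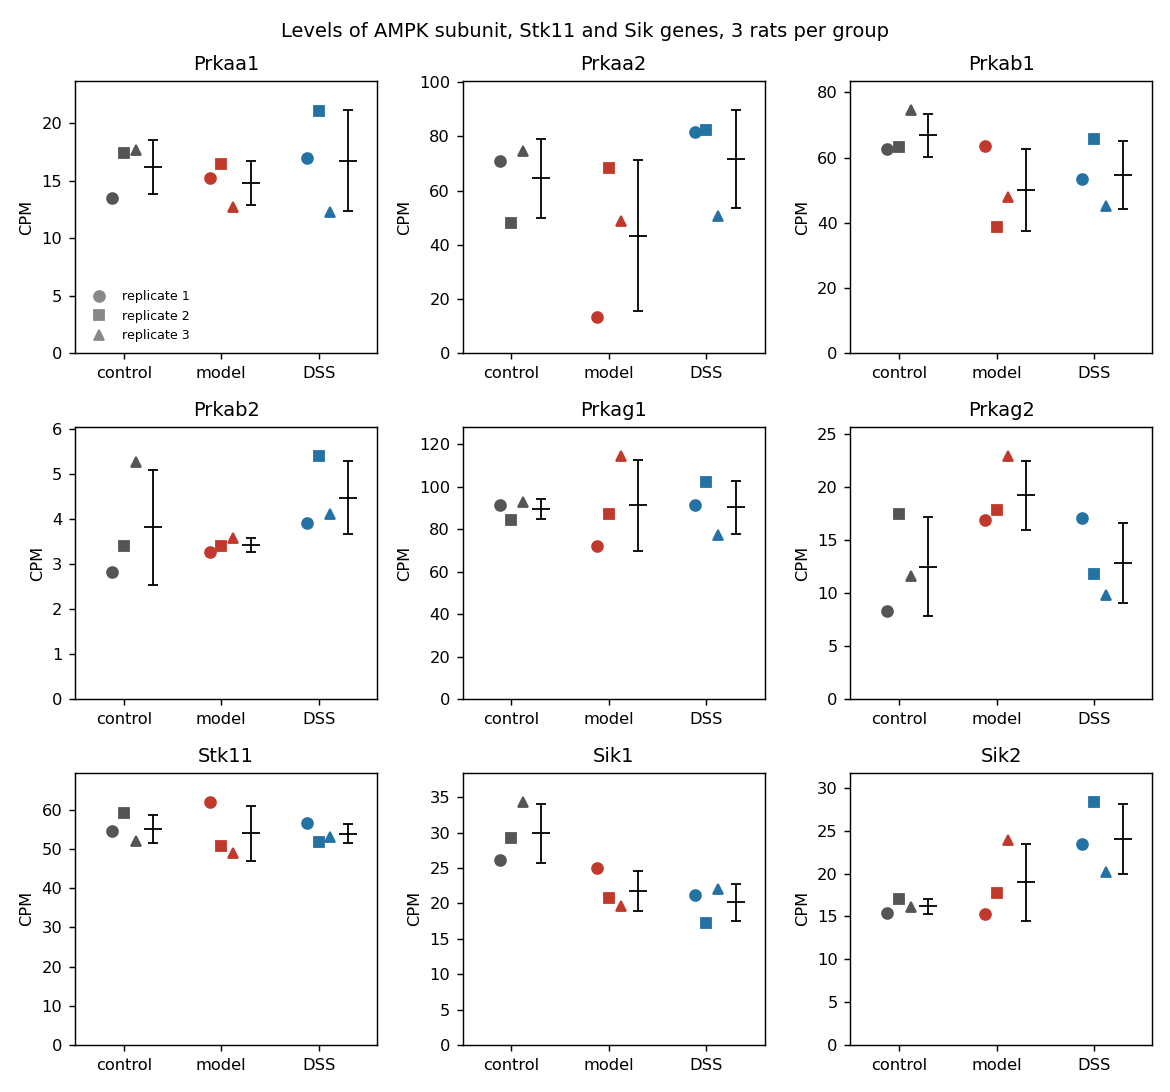
Levels in CPM of the AMPK subunit genes, Stk11, Sik1 and Sik2 in each rat, with the mean and SD of the 3 rats of a group beside the points, on axes that start at 0. Prkaa2 in model replicate 1 stands at 13.2 CPM, below the 48.0 to 82.4 CPM of the other 8 rats, and Sik1 and Sik2 are the genes whose DSS rats do not overlap the control rats.

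The catalytic subunit of AMPK is made from Prkaa1 or Prkaa2, and in hepatocytes both are used. Prkaa1 was at 13.5, 17.4 and 17.7 CPM in the control rats, 15.2, 16.5 and 12.7 CPM in the model rats and 16.9, 21.0 and 12.3 CPM in the DSS rats. The 3 groups overlapped. Its log2 fold change was -0.13 (SE 0.18, FDR 0.791 by edgeR) between the model and control groups, 0.19 (SE 0.22, FDR 0.888) between the DSS and model groups, and 0.04 (SE 0.20, FDR 0.925) between the DSS and control groups.

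Prkaa2 was at 71.1, 48.0 and 74.6 CPM in the control rats. The model rats were at 13.2, 68.3 and 48.8 CPM and the DSS rats at 81.8, 82.4 and 50.8 CPM. A single rat, model replicate 1 with 308 counts against at least 792 in the others, was far below the rest, and all groups overlapped. The log2 fold change was -0.58 (SE 0.49, FDR 0.660 by edgeR) in the model group against control and 0.73 (SE 0.50, FDR 0.809) in the DSS group against model. Without model replicate 1 these became -0.16 and 0.30, and without model replicate 2, the highest of that group, -1.07 and 1.21. The DSS group against control, which does not use that rat, gave 0.14 (SE 0.23, FDR 0.760). Over the 9 rats the highest level was 6.22 times the lowest, and 1.72 times without model replicate 1.

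The beta subunits hold the complex together and bind glycogen. Prkab1 was at 62.6, 63.4 and 74.6 CPM in the control rats, 63.7, 38.9 and 47.8 CPM in the model rats and 53.3, 65.6 and 45.1 CPM in the DSS rats. Of the 6 rats on fructose, 4 were below every control rat. For Prkab1 the log2 fold change was -0.41 (SE 0.19, FDR 0.416 by edgeR) in the model group and -0.30 (SE 0.14, FDR 0.244) in the DSS group, each against control, and 0.13 (SE 0.21, FDR 0.920) between the DSS and model groups. Without model replicate 1 the value for model against control was -0.64 (FDR 0.0955). Prkab1 did not pass the test in any comparison, with or without that rat.

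Prkab2 had few reads, between 53 and 100 counts in a library. It was at 2.81, 3.39 and 5.25 CPM in the control rats, 3.27, 3.40 and 3.57 CPM in the model rats and 3.90, 5.39 and 4.11 CPM in the DSS rats. All DSS rats were above all model rats, with a log2 fold change of 0.39 (SE 0.23, FDR 0.767 by edgeR, and 0.24 without DSS replicate 2), and the control rats spanned most of both groups. Against control the values were -0.16 (SE 0.29, FDR 0.852) for the model group and 0.23 (SE 0.27, FDR 0.650) for the DSS group.

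The gamma subunits bind AMP, ADP and ATP. Prkag1 was at 91.4, 84.1 and 92.6 CPM in the control rats, 72.3, 87.0 and 114 CPM in the model rats and 91.2, 102 and 77.4 CPM in the DSS rats. The means of the 3 groups were almost level, and the log2 fold changes were 0.03 (SE 0.18, FDR 0.966 by edgeR) for model against control, -0.01 (SE 0.20, FDR 0.996) for DSS against model and 0.01 (SE 0.12, FDR 0.979) for DSS against control.

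Prkag2, the gene of a gamma subunit with a longer N-terminal part, was at 8.31, 17.5 and 11.6 CPM in the control rats. It was at 16.9, 17.8 and 22.9 CPM in the model rats and at 17.1, 11.8 and 9.78 CPM in the DSS rats. Control replicate 2 and DSS replicate 1 lay within the range of the model rats. Prkag2 had a log2 fold change of 0.62 (SE 0.27, FDR 0.380 by edgeR) in the model group against control, -0.57 (SE 0.24, FDR 0.605) in the DSS group against model and 0.04 (SE 0.31, FDR 0.953) in the DSS group against control. The first of these comparisons shares the model libraries with the second, and it gave 0.39 without control replicate 1 and 0.95 without control replicate 2. Prkag3, the gene of the gamma subunit known from skeletal muscle, averaged 0.248, 0.214 and 0.265 CPM in the control, model and DSS groups and was too low to be tested.

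Stk11 encodes LKB1, the kinase that activates AMPK, NUAK and the salt-inducible kinases. It was at 54.5, 59.1 and 52.0 CPM in the control rats, 62.1, 50.8 and 49.1 CPM in the model rats and 56.6, 51.9 and 53.2 CPM in the DSS rats. It had the narrowest range of the 10 genes, with the highest rat at 1.26 times the lowest. The log2 fold changes were -0.03 (SE 0.14, FDR 0.941 by edgeR), 0.00 (SE 0.14, FDR 0.998) and -0.04 (SE 0.10, FDR 0.837) for model against control, DSS against model and DSS against control.

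Of the partners of LKB1, 1, Stradb, was called. Strada, which encodes the pseudokinase STRAD alpha, averaged 4.07, 4.41 and 4.18 CPM in the control, model and DSS groups. Cab39 and Cab39l, the genes of the MO25 scaffolds, averaged 56.8, 58.4 and 53.2 CPM and 17.5, 19.6 and 17.9 CPM. The model rats were all above the control rats in Cab39l, with a log2 fold change of 0.16 (SE 0.13, FDR 0.651 by edgeR). Strada ran from 3.21 to 5.46 CPM over the 9 rats, and its groups overlapped, as did those of Cab39. Stradb, the gene of STRAD beta, was at 43.8, 49.7 and 51.6 CPM in the control rats, 74.8, 58.8 and 76.0 CPM in the model rats and 86.4, 76.2 and 84.7 CPM in the DSS rats. All rats on fructose were above all control rats. Its log2 fold change was 0.53 (SE 0.15, FDR 0.180 by edgeR) in the model group and 0.76 (SE 0.11, FDR 0.00532) in the DSS group, each against control, so that it was called in the DSS group, where 1.48% of all genes tested were called and 0.657% were called higher. The call at an FDR of 0.01 was lost, at FDR 0.0143 to 0.0229, without any 1 of the control rats, without DSS replicate 1 and without DSS replicate 3. It was also lost with the replicate number as a block (FDR 0.0201) and with all 9 libraries in the fit (FDR 0.0127).

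Sik1, a salt-inducible kinase gene that is itself induced through cAMP and CREB, was lower in both fructose-fed groups than in control. It was at 26.1, 29.2 and 34.4 CPM in the control rats, 25.0, 20.8 and 19.6 CPM in the model rats and 21.2, 17.2 and 22.1 CPM in the DSS rats. Every rat on fructose was below every control rat, with model replicate 1 just under control replicate 1. Its log2 fold change was -0.45 (SE 0.17, FDR 0.297 by edgeR) in the model group against control and -0.11 (SE 0.16, FDR 0.917) in the DSS group against model. In the DSS group against control it was -0.57 (SE 0.15, FDR 0.0487), which passes at an FDR of 0.05 and not at 0.01.

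Sik2, which is known for its part in adipocytes and in hepatic CRTC2 signalling, was higher in the DSS rats than in control. It was at 15.4, 17.1 and 16.1 CPM in the control rats, 15.2, 17.8 and 23.9 CPM in the model rats and 23.4, 28.4 and 20.2 CPM in the DSS rats. The model rats overlapped both other groups, and the DSS rats were all above the control rats. For Sik2 the log2 fold change was 0.23 (SE 0.19, FDR 0.655 by edgeR) for model against control, 0.35 (SE 0.21, FDR 0.784, and 0.55 without model replicate 3) for DSS against model and 0.56 (SE 0.14, FDR 0.0482) for DSS against control. The paralog Sik3 averaged 59.5 ± 3.29, 57.5 ± 11.1 and 57.3 ± 7.53 CPM in the control, model and DSS groups.

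Both salt-inducible kinase results stand close to the looser threshold. Without any 1 rat, the FDR of Sik1 in the DSS group against control was 0.0558 to 0.151. For Sik2 it was 0.0324 without DSS replicate 3 and 0.0964 to 0.137 without any other rat. With scaling to library size alone the FDR was 0.0176 for Sik1 and 0.143 for Sik2, with the replicate block it was 0.0729 and 0.0773, and with all 9 libraries in the fit it was 0.0747 and 0.130. DESeq2 gave 0.0214 and 0.0193.

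**Figure D3:**
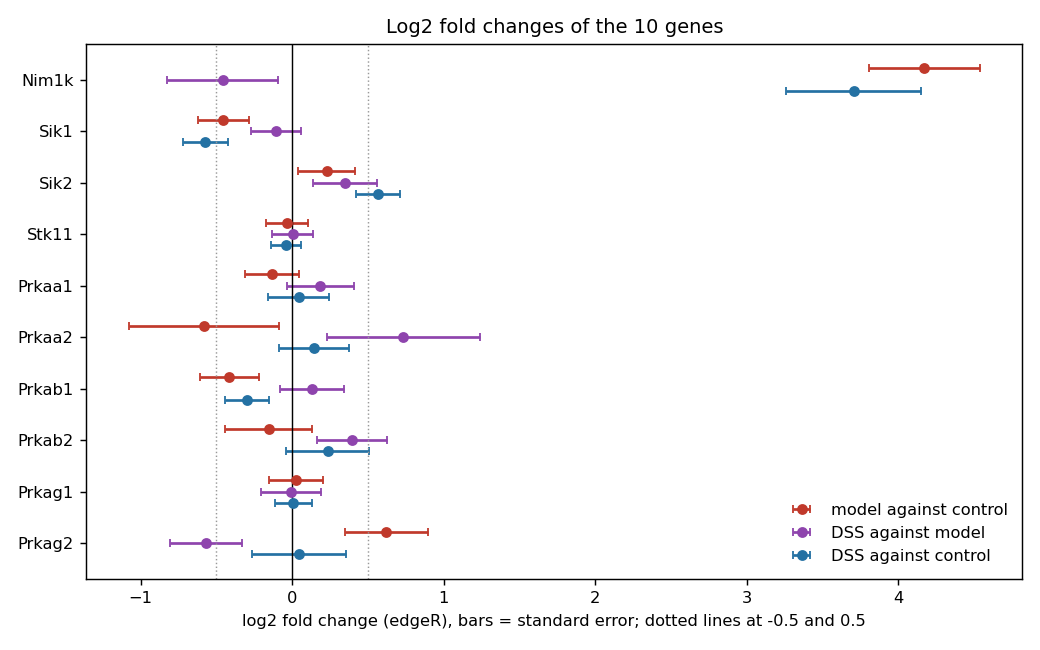
Log2 fold changes of the 10 genes from edgeR in the 3 comparisons, with bars of 1 standard error and dotted lines at -0.5 and 0.5. Nim1k lies at 4.17 and 3.70 against control, and the other 9 genes lie between -0.58 and 0.73 in all comparisons.

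Counted together, the 9 genes other than Nim1k held no call at an FDR of 0.01 in any comparison. Between the model and control groups edgeR called 0 of 9 at an FDR of 0.01 and at 0.05, where it called 0.0801% and 0.601% of all genes tested, and DESeq2 called 0 of 9, against 2.05% of all genes at 0.01. Of the 9 genes, 1 (Sik1) had an unadjusted edgeR p under 0.05, where 13.2% of all genes tested had one, and the groups did not overlap in 1 of the 9, against 21.1% of all genes. Between the DSS and model groups, edgeR called 0 of 9 at an FDR of 0.01 and at 0.05, where it called 0.136% and 0.456% of all genes, and DESeq2 called 0 of 9, against 1.18% of all genes at 0.01. Of the 9 genes, 1 (Prkag2) had an unadjusted edgeR p under 0.05, against 8.02% of all genes. The groups did not overlap in 1 of the 9 (Prkab2), against 13.9% of all genes. Between the DSS and control groups edgeR and DESeq2 called 0 of 9 at an FDR of 0.01, against 1.48% and 6.09% of all genes, and 2 of 9 (22.2%), Sik1 and Sik2, passed at 0.05 with either tool and had an unadjusted edgeR p under 0.05. At that looser threshold edgeR called 6.36% of all genes and DESeq2 8.91%, and 24.3% had an unadjusted edgeR p under 0.05. The groups did not overlap in these 2 of 9 genes (22.2%), against 30.0% of all genes. The median log2 fold changes of the 9 genes were -0.13, 0.13 and 0.04 in the 3 comparisons, beside -0.00, 0.00 and -0.01 over all genes tested.

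The balance between paralogs within a library does not depend on how libraries are scaled. The log2 ratio of Sik1 to Sik2 was 0.76, 0.77 and 1.10 in the control rats, 0.71, 0.23 and -0.29 in the model rats and -0.15, -0.72 and 0.12 in the DSS rats. Its means were 0.88 ± 0.19, 0.22 ± 0.50 and -0.25 ± 0.43 (SD, n = 3) for control, model and DSS. The rats of either fructose-fed group were all below the control rats, with differences of -0.66 and -1.13 between the means. By the exact two-sided permutation test both had p = 0.1, the smallest that 3 rats against 3 can give, and 0.3 after adjustment over 12 tests of ratios.

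The subunit pairs showed smaller or less even shifts. The log2 ratio of Prkab1 to Prkab2 averaged 4.18 ± 0.33 for control, 3.85 ± 0.39 for model and 3.61 ± 0.16 for DSS, and the DSS rats were all below the control rats. That of Prkag1 to Prkag2 averaged 2.91 ± 0.60 for control, 2.24 ± 0.12 for model and 2.84 ± 0.37 for DSS, and the model rats were all below the DSS rats. Each of these non-overlapping pairs of groups also had an exact permutation p of 0.1, and 0.3 after adjustment. The log2 ratio of Prkaa1 to Prkaa2 was 0.20 in model replicate 1 and between -2.39 and -1.46 in the other 8 rats.

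**Figure D4:**
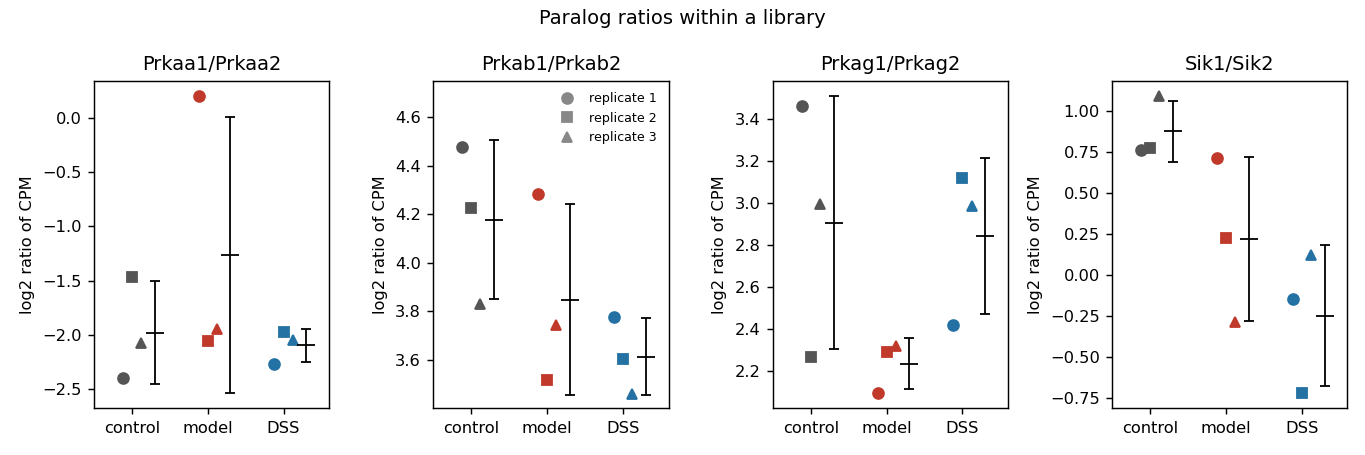
Log2 ratio of the CPM of paralogous genes in each rat, with the mean and SD of each group beside the points; the axes differ between panels and do not start at 0. The Sik1 to Sik2 ratio of all DSS rats, from -0.72 to 0.12, is below that of all control rats, from 0.76 to 1.10, and model replicate 1 stands alone in the Prkaa1 to Prkaa2 panel at 0.20.

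In the wider family, 14 other AMPK-related kinase genes were listed, Sik1 and Sik2 among them, and 11 were tested, since Brsk2 was not matched and Melk and Hunk were too low. By edgeR 0 of the 11 were called at an FDR of 0.01 in any comparison, against 0.0801%, 0.136% and 1.48% of all genes tested for model against control, DSS against model and DSS against control. Between the model and control groups 2 (against 13.2% of all genes) had an unadjusted p under 0.05, and DESeq2 called 1, Nuak1, where it called 2.05% of all genes. Nuak1, the gene of a kinase known for its part in cell adhesion, was named after its values were seen. It was at 9.64, 7.67 and 9.24 CPM in the control rats, 19.3, 19.0 and 39.8 CPM in the model rats and 19.2, 7.93 and 17.7 CPM in the DSS rats. The model rats all lay above the control rats, and DSS replicate 2 was at the control level. Nuak1 had a log2 fold change of 1.55 (SE 0.30, FDR 0.0836 by edgeR, FDR 1.36e-04 by DESeq2) in the model group and 0.75 (SE 0.31, FDR 0.198 by edgeR) in the DSS group, each against control. Snrk, also named after its values were seen, was at 11.6 CPM in model replicate 1 and at 21.9 to 30.8 CPM in the other 8 rats. That rat, which stood apart on the second principal component, was also the lowest in Prkaa2. It was the lowest in listed genes outside the kinase family too, such as Fnip2, Foxo3 and Tbc1d4, and the highest in others, such as Crem. A link between Prkaa2 and Snrk was not tested.

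Of 8 genes of the LKB1 complex and other upstream kinases, all were tested, and by edgeR 0, 0 and 1 (Stradb) were called for model against control, DSS against model and DSS against control. Of 7 genes of AMPK phosphatases and the folliculin complex, 5 were tested and 0, 0 and 1 were called. Over all genes tested the shares called were 0.0801%, 0.136% and 1.48%. The called gene was Flcn, which encodes folliculin, a partner of AMPK in the control of lysosomal nutrient signalling. It was at 19.9, 17.7 and 18.6 CPM in the control rats, 27.1, 32.3 and 41.8 CPM in the model rats and 48.2, 41.8 and 42.3 CPM in the DSS rats. Every rat on fructose was above every control rat. The log2 fold change was 0.84 (SE 0.18, FDR 0.0984 by edgeR, FDR 0.00537 by DESeq2) in the model group and 1.23 (SE 0.11, FDR 0.000687 by edgeR) in the DSS group, each against control. The latter passed in every alternative fit, including without any 1 rat, with an FDR of at most 0.0037. Between the DSS and model groups it was 0.39 (SE 0.18, FDR 0.652 by edgeR).

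**Figure D5:**
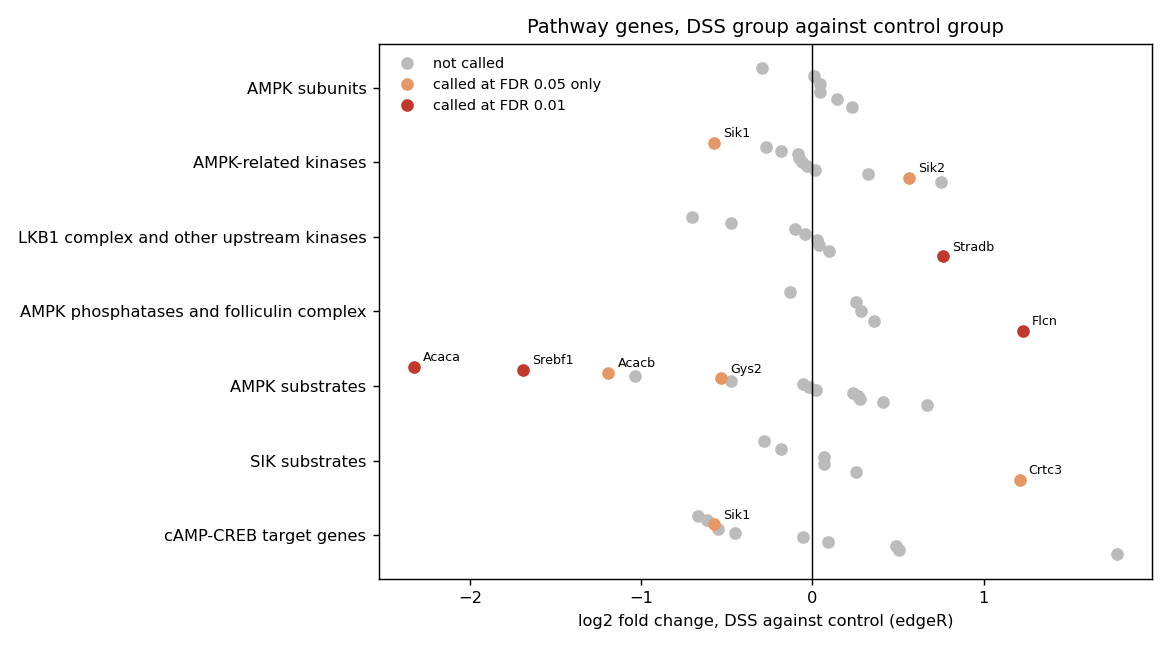
Log2 fold changes between the DSS and control groups, from edgeR, of every tested gene on the lists of the AMPK system apart from Nim1k. Each point is a gene, placed in the row of its list, and Sik1 and Ppargc1a each stand on a pair of lists. Flcn at 1.23 and Stradb at 0.76 are called higher, and Acaca at -2.32 and Srebf1 at -1.69 lower, at an FDR of 0.01.

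The list of 14 genes whose products AMPK phosphorylates was tested in full. Between the model and control groups edgeR called 0 of them at an FDR of 0.01, against 0.0801% of all genes tested. At an FDR of 0.05 it called 1 (7.14%), against 0.601% of all genes. Of the 14, 2 had an unadjusted edgeR p under 0.05, against 13.2%, and DESeq2 called 2 at an FDR of 0.01, against 2.05%. Acaca, the gene of the cytosolic acetyl-CoA carboxylase, had the largest fall of these 14 genes in the DSS group against control. It was at 212, 224 and 184 CPM in the control rats, 88.9, 229 and 195 CPM in the model rats and 40.2, 38.0 and 46.2 CPM in the DSS rats. Every DSS rat was below every other rat, and model replicate 1 was the lowest of the rest. The log2 fold change of the DSS group was -2.32 (SE 0.13, FDR 3.9e-05 by edgeR) against control. Against model it was -2.04 (SE 0.32, FDR 0.0499), with an FDR of 0.00175 without model replicate 1 and of 0.0957 to 0.233 without any other rat. At an FDR of 0.01 between the DSS and model groups edgeR called 0 of the 14 genes, 4 of them had an unadjusted p under 0.05, against 8.02% of all genes, and DESeq2 called 1, against 1.18% of all genes.

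Between the DSS and control groups 2 of the 14 genes were called lower at an FDR of 0.01, Acaca and Srebf1 (0.823% of all genes were), and 4 at an FDR of 0.05 (28.6%, against 6.36% of all genes tested). Srebf1, the gene of the lipogenic transcription factor SREBP-1, was at 569, 857 and 602 CPM in the control rats, 456, 214 and 606 CPM in the model rats and 169, 219 and 243 CPM in the DSS rats. Its log2 fold change was -1.69 (SE 0.20, FDR 0.00244 by edgeR), with an FDR of 0.0106 without DSS replicate 2 and of 0.0267 with all 9 libraries in the fit. Acacb, which encodes the mitochondrial acetyl-CoA carboxylase, had a log2 fold change of -1.19 (SE 0.19, FDR 0.0101), and Gys2, the liver glycogen synthase gene, of -0.53 (SE 0.12, FDR 0.0278). Acacb was about as low in the model rats, with means of 160, 73.3 and 70.3 CPM in the control, model and DSS groups. Its log2 fold change was -1.13 (FDR 0.117 by edgeR, FDR 0.00272 by DESeq2) for model against control. For DSS against model it was -0.05 (FDR 0.968 by edgeR). With any 1 rat left out the FDR of Acacb for DSS against control was 0.0026 to 0.0468. That of Gys2 was 0.0459 without DSS replicate 2 and 0.0577 to 0.0883 without any other rat. Between the DSS and control groups the median of the 14 genes was -0.04, beside -0.01 over all genes tested, with 8 lower and 6 higher. Of the 14, 8 had an unadjusted edgeR p under 0.05, against 24.3% of all genes. DESeq2 called 5 at an FDR of 0.01, against 6.09%. The groups did not overlap in 9 of the 14 (64.3%, against 30.0% of all genes), 5 lower and 4 higher in the DSS rats. The list was chosen with earlier results of these data known. In the same comparison 0 of the 6 tested AMPK subunit genes were called by edgeR at an FDR of 0.01 or 0.05, against 1.48% and 6.36% of all genes. An unadjusted edgeR p under 0.05 was found in 0 of them, against 24.3% of all genes. Counts this small in 6 genes do not set them apart from other genes.

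For the targets of the salt-inducible kinases, 6 genes were listed and tested, and by edgeR 0 were called at an FDR of 0.01 in each comparison. Of all genes tested, 0.0801%, 0.136% and 1.48% were called for model against control, DSS against model and DSS against control. Between the DSS and control groups 1 of the 6 passed at 0.05, against 6.36% of all genes: Crtc3, the gene of a CREB coactivator. It was at 1.53, 1.72 and 1.66 CPM in the control rats, 0.688, 2.89 and 3.02 CPM in the model rats and 5.36, 3.18 and 2.86 CPM in the DSS rats, with a log2 fold change of 1.21 (SE 0.30, FDR 0.0426 by edgeR). Without DSS replicate 3 its FDR was 0.0447, without any other rat it was 0.0579 to 0.145, with all 9 libraries in the fit it was 0.194, and its log2 fold change was 0.88 without DSS replicate 1. Of 11 CREB target genes 10 were tested, Sik1 among them, and at an FDR of 0.05 between the DSS and control groups edgeR called Sik1 alone. DESeq2 called 1 of the 10 at 0.01, against 6.09% of all genes: Pck1, the gene of a gluconeogenic carboxykinase, with a log2 fold change of 1.78 (FDR 0.0613 by edgeR, FDR 8.38e-07 by DESeq2), named after its values were seen. Pck1 was at 731, 703 and 996 CPM in the control rats and at 3409, 1268 and 3702 CPM in the DSS rats. The model rats, at 2178, 1722 and 610 CPM, overlapped both groups. Between the DSS and control groups 2 of the 10 genes did not overlap (20%), Sik1 lower and Pck1 higher, against 30.0% of all genes tested.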

How the data were processed

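Total liver RNA was enriched for mRNA with oligo(dT) beads and sequenced on an Illumina platform. The authors aligned the reads with HISAT2 and counted them per gene with HTSeq 0.6.1 without regard to strand, with Rnor_6.0 named in the submitters' processing notes, and deposited raw counts, not normalized. The strand of a read was therefore not used to tell overlapping genes apart. A table of 127 assembled transcripts with a value in 1 sample each was not used.

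Each comparison was fitted to the 6 libraries of its groups with edgeR 4.0.16 in R 4.3.3 (filterByExpr, TMM, robust glmQLFit, two-sided glmQLFTest, Benjamini-Hochberg FDR over all genes tested). Calls needed an FDR no higher than 0.01 and a log2 fold change of 0.5 or more in either direction, the study's thresholds. SE was taken from the fold change and its F statistic. CPM were scaled to TMM library sizes over 9 libraries, and correlations used log2(CPM + 1). Poisson intervals cover counting error only. DESeq2 1.42.0 and other settings were alternatives.

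The genes, lists and named genes (genes on the lists passing an FDR of 0.05, relatives of the 10 genes, and those most like Nim1k) were chosen with earlier results of these data known. Same-numbered libraries deviated from their group means with correlations of -0.26 to -0.01, so the numbers do not pair rats. No rat gene lengths or sequences were used. Not every gene that met the naming rule is reported here.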

Additional observations from a re-analysis of the deposited data

How the results depend on the processing

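Alternatives were DESeq2, its size factors, library size alone, no filter, at least 10 counts in every library, all 9 libraries in one fit, the replicate block, an FDR of 0.05 and each rat left out in turn. The number of the 9 genes called was 0 in all of them except an FDR of 0.05, which gave 2 between the DSS and control groups. The replicate block also gave 0 calls in each comparison. The log2 fold change of Nim1k was 3.90 to 4.45 for model against control, -0.96 to -0.24 for DSS against model and 3.21 to 3.98 for DSS against control, with no value under the filter of 10 counts for the comparisons with control, since 2 control rats had 8.

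Library size alone lowered the median of all genes by 0.14 on the log2 scale in both comparisons with control, and with it Prkag1 turned to -0.11 for model against control, and Prkaa1, Prkag1 and Prkag2 to -0.073, -0.12 and -0.069 for DSS against control. The replicate block turned Prkag1 to 0.0091 for DSS against model. With a rat left out, small fold changes crossed 0. For model against control the ranges were -0.34 to 0.14 for Prkab2, -0.17 to 0.16 for Prkag1 and -0.16 to 0.031 for Stk11. For DSS against model they were -0.011 to 0.37 for Prkaa1, -0.026 to 0.34 for Prkab1, -0.15 to 0.19 for Prkag1 and -0.055 to 0.12 for Stk11. For DSS against control they were -0.15 to 0.24 for Prkaa1, -0.022 to 0.36 for Prkaa2, -0.085 to 0.12 for Prkag1, -0.21 to 0.38 for Prkag2 and -0.077 to 0.018 for Stk11. None of these genes passed the test in any of these fits. In the control rats 8 to 10 counts stand behind Nim1k, and 3 rats a group behind every test.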
